A study of Mus musculus with 6 samples.

Results

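Cytosolic ribosomal proteins were examined in alveolar type 2 cell preparations from bleomycin-exposed and PBS-exposed mouse lungs. Members were the genes whose symbol is Rpl or Rps followed by a number, with at most a short suffix such as a, x or l, together with Rpsa, Rplp0, Rplp1, Rplp2 and Fau, and with the Rps6k kinases left out. This rule found 82 of the 13931 genes listed, 49 of the large subunit (Rpl and Rplp) and 33 of the small subunit (Rps, Rpsa and Fau). They comprise 78 canonical members and the 4 members Rpl6l, Rpl7l1, Rpl22l1 and Rps27l, whose symbols mark them as relatives of another member.

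The bleomycin group was 3 C57BL/6 mice given multiple exposures to bleomycin, a DNA-cleaving drug used to model lung fibrosis, at 1 U/kg. The PBS group was 3 C57BL/6 mice given multiple exposures to phosphate-buffered saline. No genotype other than the strain is labelled, and the labels do not state age, sex, route, number of exposures or time of harvest. One stranded RNA-seq library was made per mouse from total RNA of alveolar type 2 cells, the surfactant-secreting progenitor cells of the alveolus, and gives an FPKM value (fragments per kilobase of transcript, relative to all fragments mapped in that library) for each transcript. The listed FPKM summed to between 259607 and 272315 in the bleomycin libraries and to between 253146 and 300697 in the PBS libraries, and the read depth behind each value is unknown.

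Each cytosolic ribosome joins a small subunit, which decodes the mRNA, to a large subunit, which forms peptide bonds and holds the exit tunnel for the new protein. One copy of nearly every ribosomal protein enters each ribosome. Mammalian ribosomal protein mRNAs begin with a C followed by a run of pyrimidines, the terminal oligopyrimidine tract, through which mTORC1 and the RNA-binding protein LARP1 control their translation and stability. In the lung, type 2 cells carry a large secretory load because they make surfactant proteins.

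The tract is encoded in the DNA at the transcription start, so the windows below show 30 bases at the start of members whose levels are described further on. They come from RefSeq on the mouse build GRCm38.p6, transcribed strand, and capitals mark the longest run of C and T within 40 bases either side of the annotated start (the first transcribed base is +1). The first 4 belong to members that were higher after bleomycin and hold runs of 9 to 10 bases; in Rps15a the run lies at -15 to -6, in Rpl13 at -16 to -7, in Rps24 at -3 to 6 and in Rps6 at -1 to 9.
Rps15a (chr7:118116143-118116172, minus strand): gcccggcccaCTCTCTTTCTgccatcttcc
Rpl13 (chr8:123102324-123102353, plus strand): cgtgacgtcaCTTCCCTTTCgcctgatttt
Rps24, the more upstream annotated start (chr14:24490665-24490694, plus strand): cgcgctggggTCCTTCCTTgcgcgttgata
Rps6 (chr4:86857349-86857378, minus strand): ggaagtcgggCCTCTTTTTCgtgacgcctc
Rps16 (chr7:28350666-28350695, plus strand): ccgtaaagcccgCTTCTgtcgtgacgtagc
Rps13 (chr7:116334161-116334190, minus strand): tgagtggcgtcaCTTCCTgtgcggcttgat
The last 2 windows hold shorter runs, of 5 bases in Rps16, which was higher after bleomycin, and of 6 bases in Rps13, which was lower. Run length varied among the members that rose: it was 7 bases in Rpl12 and in Rpsa, 5 and 14 bases at 2 annotated starts of Rpl22, and 19 bases at the more downstream start of Rps24. The run of Rpl12 lay at -38 to -32, the 14 bases of Rpl22 at -39 to -26 and the 19 bases of Rps24 at -37 to -19. All 3 are upstream of the annotated start, while that of Rpsa lay downstream, at 21 to 27. Run lengths are therefore not lengths of the tract in the mRNA.

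RefSeq start windows were matched by symbol for 61 of the 82 members, giving 72 windows because some genes have more than 1 annotated start. A run of at least 8 consecutive C or T bases on the transcribed strand lay within 40 bases of the start in 51 of the 72 member windows (70.8%), against 29.2% of the 32779 windows of other genes. On the opposite strand, runs of 8 or more C or T bases (A or G on the transcribed strand) occurred in 20.8% of member windows and 32.5% of other windows. The run was present in 76.2% of 42 large subunit windows and 63.3% of 30 small subunit windows. These letters describe the DNA and were not measured in the libraries.

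Ribosomal protein mRNAs were among the most abundant in every library. None of the 82 members was at 0 in any library, and all were among the 12326 genes tested. The mean over the 6 libraries ranged from 11.9 FPKM for Rpl7l1 to 620 FPKM for Rps24, with a median of 318 FPKM over the members and 8.05 FPKM over all tested genes. A mean above 100 FPKM was reached by 73 of the 82 members and by 3.00% of all tested genes (370 genes). The members below 100 FPKM were the 4 relatives together with Rps13, Rps15a, Rps20, Rpl13a and Rpl22.

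Summed FPKM of the large subunit members was 17803, 15747 and 14437 in the bleomycin libraries, against 13347, 11291 and 10087 in the PBS libraries. The groups did not overlap, and the means were 15996 ± 1697 FPKM after bleomycin and 11575 ± 1649 FPKM after PBS (SD, n = 3 each), a ratio of 1.38. Summed FPKM of the small subunit members was 15797, 13546 and 12451 in the bleomycin libraries, against 11185, 9612 and 8449 in the PBS libraries. These groups did not overlap either, with means of 13931 ± 1706 FPKM after bleomycin and 9749 ± 1373 FPKM after PBS (SD, n = 3 each), a ratio of 1.43.

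The members together held 12.3%, 11.1% and 10.4% of the listed FPKM in the bleomycin libraries, against 8.16%, 7.99% and 7.32% in the PBS libraries. The mean share was 11.3% ± 0.998 after bleomycin and 7.82% ± 0.441 after PBS (SD, n = 3 each), without overlap. With the 12 alveolar type 2 markers taken out of the total, since their summed level differed between groups, the share was 11.5% ± 1.09 after bleomycin and 8.48% ± 0.541 after PBS. Sums and shares over the members are given as descriptions, with no test.

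Most members shifted together within each group as well. Bleomycin library 1 was the highest of its group for 70 of the 82 members and library 3 the lowest for 69. Among the PBS libraries, library 1 was the highest for 70 members and library 3 the lowest for 71, so the most frequent order of the numbers was the same in both groups. The median coefficient of variation between libraries was 12.8% in the bleomycin group and 15.2% in the PBS group. The order of the members by level differed little between groups, with a Spearman rho of 0.95 between the bleomycin and PBS means over 82 members; the members share libraries, so this is a description.

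**Figure D1:**
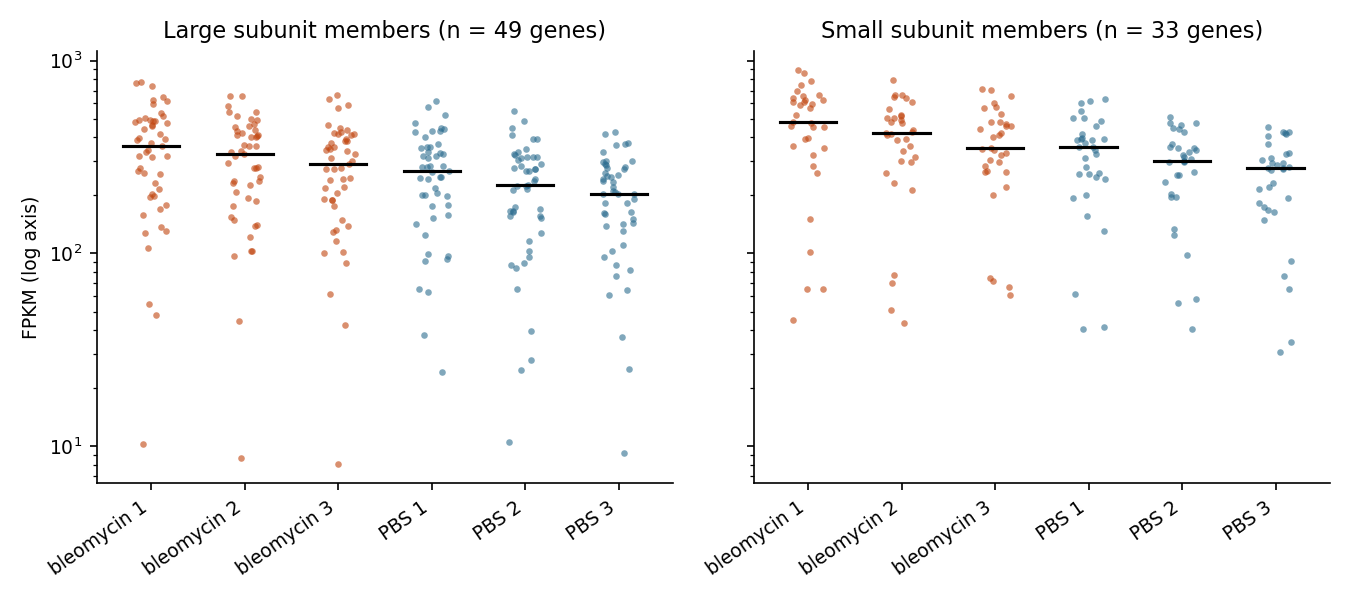
FPKM (log axis) of each of the 49 large subunit and 33 small subunit members in each library, bleomycin in orange and PBS in blue, with the black line at the median. In the large subunit panel every bleomycin median lies above every PBS median, in the small subunit panel the median of bleomycin library 3 lies level with that of PBS library 1, and the lowest point of the large subunit panel in each library is Rpl7l1.

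The ratio of summed large to summed small subunit FPKM was 1.13, 1.16 and 1.16 in the bleomycin libraries, against 1.19, 1.17 and 1.19 in the PBS libraries. The ratios did not overlap, with means of 1.15 ± 0.0197 after bleomycin and 1.19 ± 0.011 after PBS (SD, n = 3 each), so the subunits differed by little beside the change of their common level. The gap narrowed when each member was represented by its most abundant transcript, with mean ratios of 1.15 after bleomycin and 1.17 after PBS. With the geometric mean over members in place of the sum, the ratio was 0.760 after bleomycin and 0.772 after PBS. The small subunit sum leaves out Rps27rt, a copy with the same coding bases as Rps27. Rps27rt was listed at 0, 0 and 495 FPKM in the bleomycin libraries, against 440, 331 and 298 FPKM in the PBS libraries. The lack of overlap in the ratio thus depends on how reads shared with copies were assigned, which is not known.

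**Figure D2:**
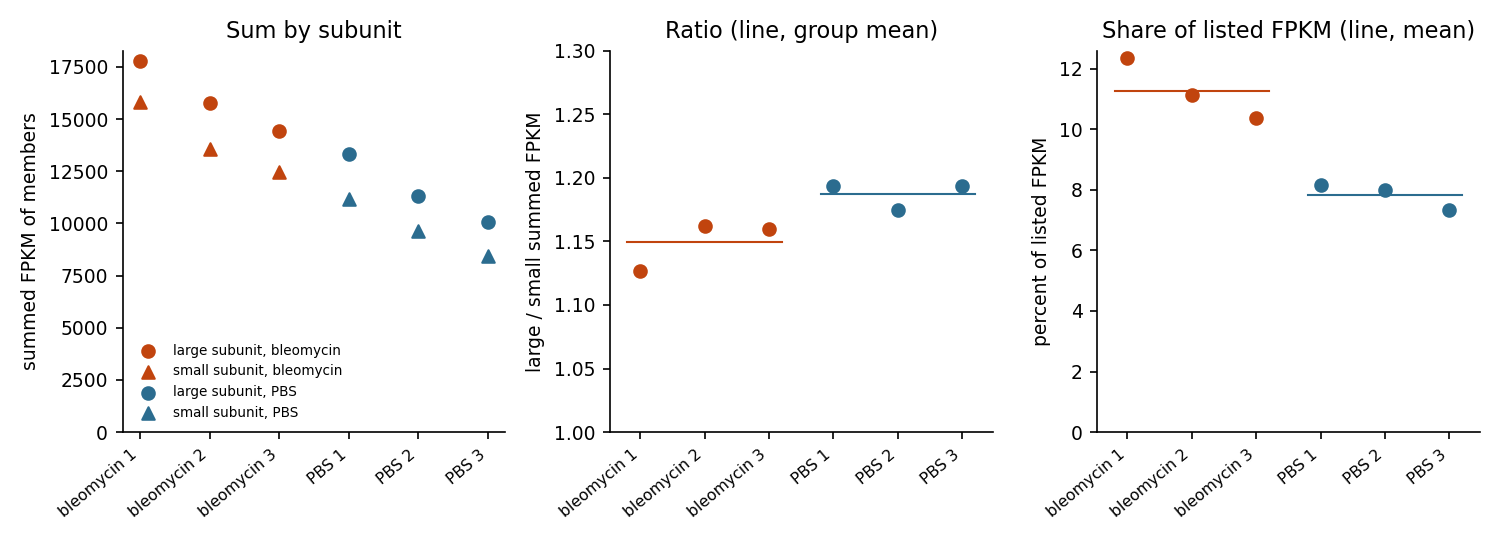
Summed FPKM of large subunit (circles) and small subunit (triangles) members, their ratio, and the members' share of the listed FPKM in percent, per library, with lines at the group means. The bleomycin libraries lie above the PBS libraries in the sums and in the share, and below them in the ratio (mean 1.15 after bleomycin and 1.19 after PBS); the ratio axis starts at 1.

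Single members were read from a limma fit over all 12326 tested genes on log2(FPKM + 1), with p-values adjusted by the Benjamini-Hochberg method and called under 0.05. After bleomycin 11 of 82 members rose (13.4%), against 15.2% of all tested genes, and 1 member, Rps13, fell (1.22%), against 7.34% of all tested genes. The share that rose was thus near that of all genes and is no result about the members. The log2 fold change (bleomycin minus PBS) was above 0 for 79 of the 82 members, against 56.1% of all tested genes, and its median was 0.46 over the large subunit, 0.57 over the small subunit and 0.09 over all tested genes.

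All 3 bleomycin libraries lay above all 3 PBS libraries for 50 of the 82 members (61.0%), 29 of the large and 21 of the small subunit, against 27.2% of all tested genes. Rps13 was the only member with all bleomycin libraries below all PBS libraries, a pattern seen in 16.4% of all tested genes. An unadjusted limma p under 0.05 was reached by 42 members, of which only Rps13 was lower, against 23.0% of all tested genes higher and 13.8% lower. The member counts depended on scaling and on single libraries. With the libraries set to equal medians, which moves the median of all tested genes from 0.09 to -0.08, 4 members rose (Rps15a, Rpl22, Rpl12 and Rpl13) and Rps13 fell, against 11.7% of all tested genes higher and 11.6% lower. This scaling shifts every log2 fold change by the same amount, so the members' medians lie 0.37 (large) and 0.48 (small) above that of all tested genes with and without it. It therefore cannot change the gap between the subunits. With quantile normalization, which can, the medians were 0.417 (large) and 0.426 (small), or 0.502 and 0.511 above that of all tested genes. The higher median of the small subunit thus depended on scaling. With each library scaled to its listed sum, 31 members rose and 1 fell, against 15.4% of all tested genes higher and 6.46% lower. The 12 calls became 2 without bleomycin library 1, 2 without bleomycin library 2, 3 without PBS library 2 and 4 without PBS library 3. Without bleomycin library 3 there were 13 higher and 1 lower, and without PBS library 1 there were 10 higher. The calls over all tested genes also became fewer with any library left out. A loss particular to the members was not tested.

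**Figure D3:**
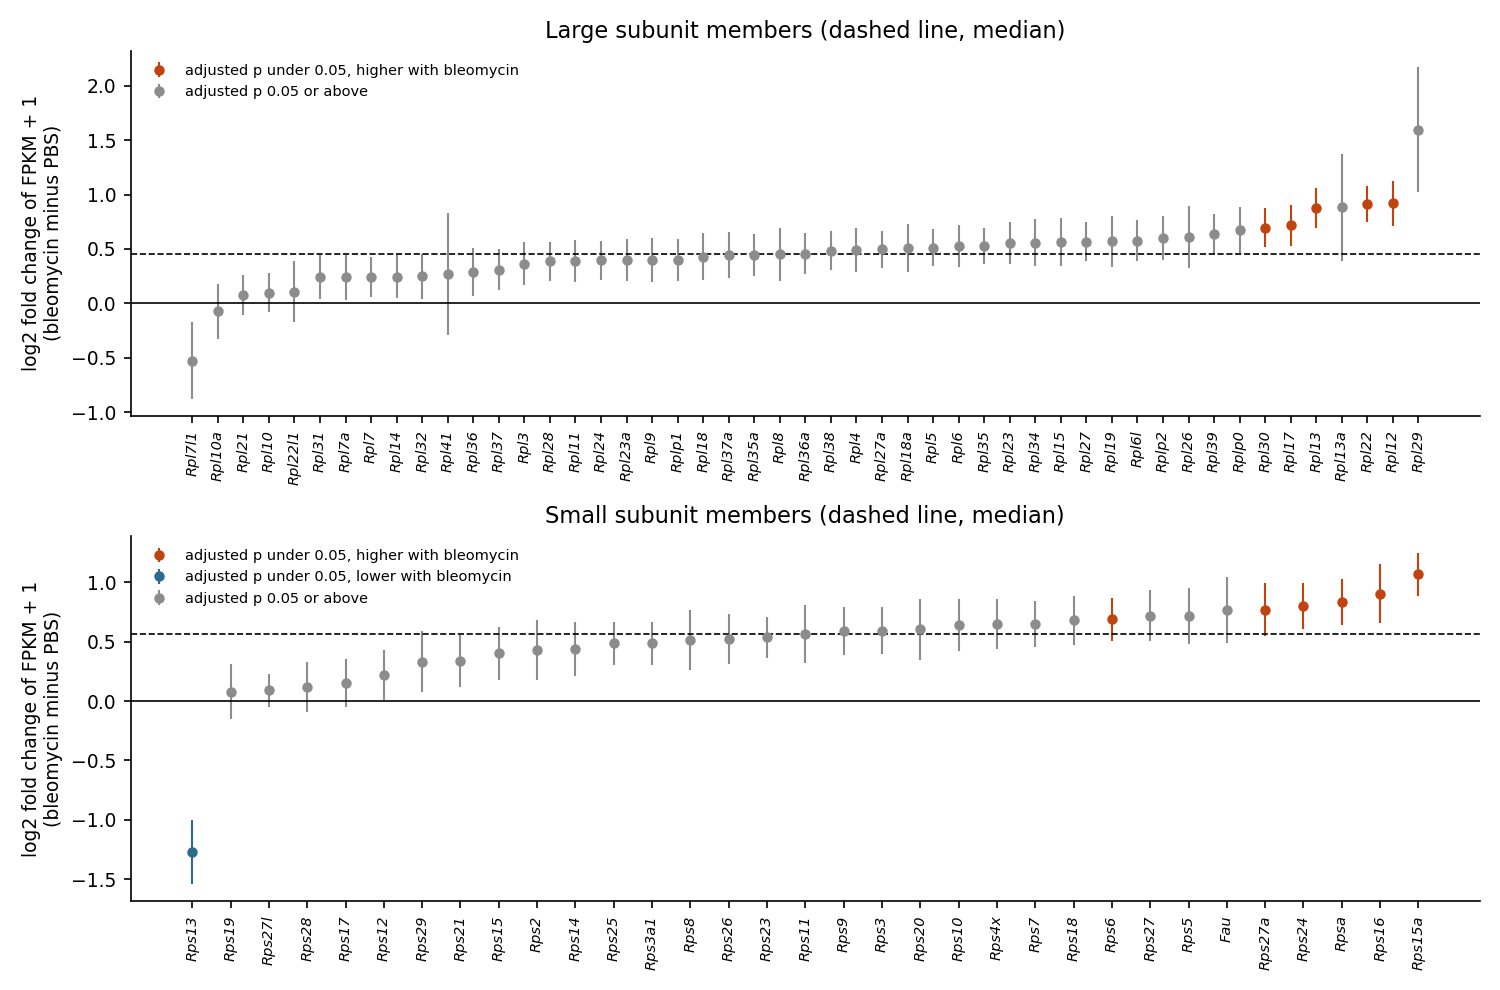
Log2 fold change of FPKM + 1 (bleomycin minus PBS) of each member with its limma standard error, large subunit above and small subunit below, orange for adjusted p under 0.05 and higher, blue for lower. Most members form a continuous band above 0 around the medians of 0.46 and 0.57, with Rps13 at -1.27 apart at the low end and Rpl29 at 1.59 with a wide error at the high end.

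Rps15a and Rpl22 were the members whose calls held without any single library. Rps15a (ENSMUSG00000008683.16, chr7:118104372-118116188 on mm10) encodes a small subunit protein that binds the 18S rRNA. Its levels were 101, 77.6 and 71.7 FPKM in the bleomycin libraries, against 41.6, 40.4 and 34.8 FPKM in the PBS libraries. The lowest bleomycin library was well above the highest PBS library, and Rps15a rose by 1.07 ± 0.18 (log2, SE; limma adjusted p = 0.00825). Rpl22 (ENSMUSG00000028936.15, chr4:152325853-152334071) encodes an RNA-binding large subunit protein that is needed for the development of alpha-beta T cells in mice and represses its own paralog, Rpl22l1. It had 137, 122 and 101 FPKM in the bleomycin libraries, against 62.8, 65.2 and 60.6 FPKM in the PBS libraries. The PBS libraries lay close together and far below the others, and Rpl22 rose by 0.91 ± 0.16 (limma adjusted p = 0.0105).

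The other 4 large subunit members that rose were Rpl13, Rpl12, Rpl17 and Rpl30. Rpl13 (ENSMUSG00000000740.11, chr8:123102350-123105244), mutated in a human skeletal dysplasia, had 502, 437 and 411 FPKM in the bleomycin libraries, against 243, 217 and 274 FPKM in the PBS libraries, a log2 fold change of 0.88 ± 0.18 (limma adjusted p = 0.0178). Rpl12, at the base of the stalk where translation factors bind, had 178, 150 and 132 FPKM in the bleomycin libraries, against 93.9, 84.3 and 64.5 FPKM in the PBS libraries (0.92 ± 0.21, limma adjusted p = 0.0227). Neither gene's groups overlapped. Rpl17, which lines the exit tunnel, averaged 512 ± 73.5 FPKM after bleomycin and 310 ± 25.4 FPKM after PBS (SD, n = 3 each), and Rpl30, which binds a kink turn in RNA, averaged 429 ± 42.3 FPKM after bleomycin and 265 ± 26.2 FPKM after PBS. Their log2 fold changes were 0.72 (limma adjusted p = 0.0394) and 0.70 (limma adjusted p = 0.0357).

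Of the small subunit, Rpsa, the laminin receptor precursor, had 452, 422 and 354 FPKM in the bleomycin libraries, against 257, 236 and 195 FPKM in the PBS libraries. Rps24, mutated in some patients with Diamond-Blackfan anaemia and the most abundant member, had 860, 791 and 714 FPKM in the bleomycin libraries, against 507, 424 and 426 FPKM in the PBS libraries. Both rose without overlap, by 0.84 ± 0.19 (limma adjusted p = 0.0259) and 0.80 ± 0.19 (limma adjusted p = 0.0287). Rps6, the substrate of the S6 kinases downstream of mTORC1, averaged 308 ± 43.1 FPKM after bleomycin and 190 ± 14.2 FPKM after PBS (SD, n = 3 each; log2 fold change 0.69, limma adjusted p = 0.0366). Rps16, whose tail reaches the decoding site, averaged 188 ± 32.4 FPKM after bleomycin and 101 ± 27.2 FPKM after PBS (0.91, limma adjusted p = 0.0436). Rps27a, made as a fusion with ubiquitin, averaged 345 ± 42.6 FPKM after bleomycin and 204 ± 46.4 FPKM after PBS (0.77, limma adjusted p = 0.0493). The bleomycin libraries lay above the PBS libraries for each of these 5 genes. The 9 rises after Rps15a and Rpl22 were all lost without bleomycin library 1 and without bleomycin library 2, all but Rps27a without PBS library 2 and all but Rpl13 without PBS library 3. Without PBS library 1 the rises of Rpl13, Rpl17, Rpl30, Rps6 and Rps27a were lost, and without bleomycin library 3 those of Rps16 and Rps27a. Their highest limma adjusted p was 0.134, for Rps27a.

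Rps13 went the other way. It encodes a small subunit protein that forms a bridge to the large subunit (ENSMUSG00000090862.3, chr7:116331505-116334195). Its levels were 45.0, 43.6 and 67.0 FPKM in the bleomycin libraries, against 157, 134 and 91.2 FPKM in the PBS libraries. The groups did not overlap, the mean was 51.9 ± 13.1 FPKM after bleomycin and 128 ± 33.5 FPKM after PBS (SD, n = 3 each), and Rps13 fell by 1.27 ± 0.27 on the log2 scale (limma adjusted p = 0.0184). The adjusted p lay between 0.017 and 0.0652 with 1 library left out, and passed the threshold without bleomycin library 3 or PBS library 3, but not without any of the other 4. Against the members' common level, with each library scaled to the same member median, the difference was -1.77 (limma adjusted p = 0.00446); this scaling was chosen after the values were seen. On that scale Rps15a remained higher by 0.57 (limma adjusted p = 0.0359) and Rpl7l1 fell, at -1.02 (limma adjusted p = 0.0442), against 7.85% of all tested genes higher and 20.8% lower.

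Rpl29 had the largest log2 fold change of all members and did not pass. This heparin-binding large subunit protein had 374, 327 and 279 FPKM in the bleomycin libraries, against 158, 39.8 and 192 FPKM in the PBS libraries. The groups did not overlap, but PBS library 2 was far below the other PBS libraries, and the difference was 1.59 ± 0.57 (limma adjusted p = 0.0937). Rpl13a, which in human monocytes leaves the ribosome after interferon-gamma to silence inflammatory mRNAs, had 54.9, 96.5 and 102 FPKM in the bleomycin libraries, against 91.0, 24.8 and 36.8 FPKM in the PBS libraries. Its groups overlapped (0.88 ± 0.49, limma adjusted p = 0.247). Rpl41, the smallest ribosomal protein, varied most within groups, with 204, 187 and 437 FPKM in the bleomycin libraries, against 473, 152 and 131 FPKM in the PBS libraries; it was named after its values were seen.

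The proteins of the lateral stalk, which recruit the elongation factors, did not pass. Rplp0 had 743, 655 and 568 FPKM in the bleomycin libraries, against 448, 447 and 338 FPKM in the PBS libraries, a log2 fold change of 0.68 ± 0.21 (limma adjusted p = 0.067). Rplp2 averaged 358 ± 43.9 FPKM after bleomycin and 236 ± 42.1 FPKM after PBS (0.60, limma adjusted p = 0.0786), and Rplp1 averaged 154 ± 15.1 FPKM after bleomycin and 118 ± 23.0 FPKM after PBS (0.40, limma adjusted p = 0.189). Groups did not overlap for Rplp0 and Rplp2 and did for Rplp1. Rplp0 is often used as a reference gene in quantitative PCR, as is Rpl32, which had 624, 545 and 667 FPKM in the bleomycin libraries, against 574, 547 and 428 FPKM in the PBS libraries (0.25, limma adjusted p = 0.429).

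Rpl5 and Rpl11, which carry the 5S rRNA and can bind Mdm2 when ribosome assembly is disturbed, had no significant difference. Rpl5 averaged 174 ± 23.4 FPKM after bleomycin and 121 ± 9.44 FPKM after PBS (SD, n = 3 each; 0.51, limma adjusted p = 0.0761). Rpl11 averaged 281 ± 38.1 FPKM after bleomycin and 215 ± 32.0 FPKM after PBS (0.39, limma adjusted p = 0.201). Only Rpl5's groups did not overlap. Fau, made as a fusion with a ubiquitin-like protein, had 326, 262 and 265 FPKM in the bleomycin libraries, against 244, 124 and 150 FPKM in the PBS libraries (0.77 ± 0.28, limma adjusted p = 0.0945). Rpl38, needed for the translation of several Hox mRNAs in mouse embryos, averaged 452 ± 35.2 FPKM after bleomycin and 323 ± 35.8 FPKM after PBS (0.48, limma adjusted p = 0.101).

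The other members named for abundance lay in the same band and did not pass. Of the large subunit these were Rpl4, Rpl8, Rpl35a and Rpl32, with log2 fold changes of 0.49, 0.45, 0.45 and 0.25. Of the small subunit they were Rps4x, Rps15, Rps21 and Rps29, with log2 fold changes of 0.65, 0.40, 0.34 and 0.33. Rps4x, encoded on the X chromosome, had 890, 664 and 703 FPKM in the bleomycin libraries, against 503, 509 and 422 FPKM in the PBS libraries (limma adjusted p = 0.0707). Rpl10a was among the 3 members with a negative value, at -0.07 (limma adjusted p = 0.866), with 132, 102 and 88.9 FPKM in the bleomycin libraries, against 152, 89.2 and 103 FPKM in the PBS libraries, which overlapped throughout.

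The relatives of canonical members were compared with their partners. Rpl22l1, whose coding sequence is 68.2% identical to that of Rpl22, had 128, 103 and 62.0 FPKM in the bleomycin libraries, against 97.6, 87.3 and 76.6 FPKM in the PBS libraries. Its groups overlapped while those of Rpl22 did not, with a log2 fold change of 0.11 ± 0.28 (limma adjusted p = 0.818); the difference between the partners was not tested. Rpl7l1, 54.0% identical to Rpl7 and in human cells a factor in large subunit assembly, had 10.3, 8.65 and 8.13 FPKM in the bleomycin libraries, against 24.2, 10.5 and 9.25 FPKM in the PBS libraries. PBS library 1 stood apart, and the difference of -0.52 did not pass (limma adjusted p = 0.33), nor did that of Rpl7 (0.24, limma adjusted p = 0.392). Rps27l, a p53 target 76.2% identical to Rps27, had 65.7, 70.2 and 61.1 FPKM in the bleomycin libraries, against 61.3, 57.9 and 65.3 FPKM in the PBS libraries (0.09 ± 0.14, limma adjusted p = 0.677). Rpl6l, the remaining relative, averaged 45.0 ± 2.80 FPKM after bleomycin and 30.2 ± 6.6 FPKM after PBS (SD, n = 3 each; 0.58, limma adjusted p = 0.0703). Canonical partners of relatives that are not analysed here, Rpl3, Rpl10 and Rpl39, had log2 fold changes of 0.36, 0.10 and 0.64, none past the threshold.

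Rps27 itself had 592, 519 and 467 FPKM in the bleomycin libraries, against 388, 303 and 272 FPKM in the PBS libraries (0.72 ± 0.21, limma adjusted p = 0.0541). Its value is uncertain because Rps27rt, an intronless copy whose 252 coding bases are identical to those of Rps27, was listed at 0, 0 and 495 FPKM in the bleomycin libraries, against 440, 331 and 298 FPKM in the PBS libraries. The sum of both genes averaged 691 ± 238 FPKM after bleomycin and 677 ± 135 FPKM after PBS (SD, n = 3 each), so the higher level of Rps27 did not remain in the sum. Among 10 listed genes with ribosomal protein copy names, 6 were at 0 in at least 1 library, among them Rpl23a-ps3, with 1.74, 160 and 157 FPKM in the bleomycin libraries, against 168, 0 and 114 FPKM in the PBS libraries. The sources used here do not say how reads shared with such copies were assigned, so values of other members with copies are uncertain too. The sum of Rpl23a and Rpl23a-ps3 was 496, 591 and 540 FPKM in the bleomycin libraries, against 539, 317 and 416 FPKM in the PBS libraries. Rpl27 with Rpl27-ps3 averaged 138 ± 21.3 FPKM after bleomycin and 137 ± 83.8 FPKM after PBS (SD, n = 3 each). That PBS mean rests on library 1, the only library with Rpl27-ps3 above 0 (134 FPKM). The Rpl27 sums were 159, 139 and 116 FPKM in the bleomycin libraries, against 234, 96.1 and 82.0 FPKM in the PBS libraries. Rps27, Rpl23a and Rpl27 are among the 50 members whose bleomycin libraries all lay above the PBS libraries, and none of the 3 sums kept that separation.

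Differences within genes were read from a limma fit on single transcripts, chosen after the gene values were seen, over 17759 transcripts. Of 181 tested member transcripts, 17 rose (against 10.8% of all tested transcripts) and 3 fell (against 3.97%). Neither share exceeded that of all tested transcripts, so these counts are no result about the members. The 3 that fell were Rps13-001 and the long forms Rpl22-002 and Rpl22-201, named as the files name them. These long forms, of 2051 and 2048 bases, cover nearly the same locus, so their falls are not separate. The short form Rpl22-001 (chr4:152325853-152332480) had 127, 111 and 92.2 FPKM in the bleomycin libraries, against 42.8, 43.9 and 40.6 FPKM in the PBS libraries, and rose by 1.34 ± 0.18 (limma adjusted p = 0.00446). Rpl22-002 (chr4:152325867-152334071) had 5.13, 5.33 and 4.38 FPKM in the bleomycin libraries, against 10.01, 10.6 and 9.98 FPKM in the PBS libraries, and fell by 0.92 ± 0.17 (limma adjusted p = 0.017). The groups lay apart in both forms, in opposite directions.

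In GENCODE release M21 the 3 Rpl22 forms have the same coding length of 384 bases and differ in the last exon, which is 201 bases in Rpl22-001, 1792 in Rpl22-002 and 1791 in Rpl22-201. The long forms made up 7.55%, 8.83% and 8.68% of Rpl22 FPKM in the bleomycin libraries, against 31.9%, 32.6% and 32.9% in the PBS libraries. Each group's libraries lay within a narrow range, and the ranges were far apart.

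The forms of Rps24 also differed between groups. Rps24-202 had 821, 720 and 618 FPKM in the bleomycin libraries, against 253, 304 and 253 FPKM in the PBS libraries, and rose by 1.41 ± 0.21 (limma adjusted p = 0.00696). Rps24-201 had 39.8, 71.0 and 96.3 FPKM in the bleomycin libraries, against 254, 120 and 173 FPKM in the PBS libraries, a difference of -1.41 ± 0.40 that did not pass (limma adjusted p = 0.0642). Rps24-202 thus held 95.4%, 91.0% and 86.5% of the gene in the bleomycin libraries, against 49.96%, 71.7% and 59.3% in the PBS libraries, without overlap. Forms of Rps24 that differ in short exons at the 3′ end are known to vary between cell types.

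The fall of Rps13 lay in its main form. Rps13-001 had 38.1, 42.4 and 58.3 FPKM in the bleomycin libraries, against 157, 133 and 90.6 FPKM in the PBS libraries (-1.43 ± 0.27, limma adjusted p = 0.0171). The minor form Rps13-004 had 6.93, 1.24 and 8.71 FPKM in the bleomycin libraries, against 0.523, 0.631 and 0.586 FPKM in the PBS libraries (1.82 ± 0.55, limma adjusted p = 0.0746). In some genes the split between forms varied within a group, as in Rps19, named after its values were seen. Rps19-001 held 82.3%, 63.4% and 0.384% of Rps19 in the bleomycin libraries, against 94.2%, 89.8% and 59.1% in the PBS libraries, while Rps19 as a whole differed by 0.08 (limma adjusted p = 0.838).

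**Figure D4:**
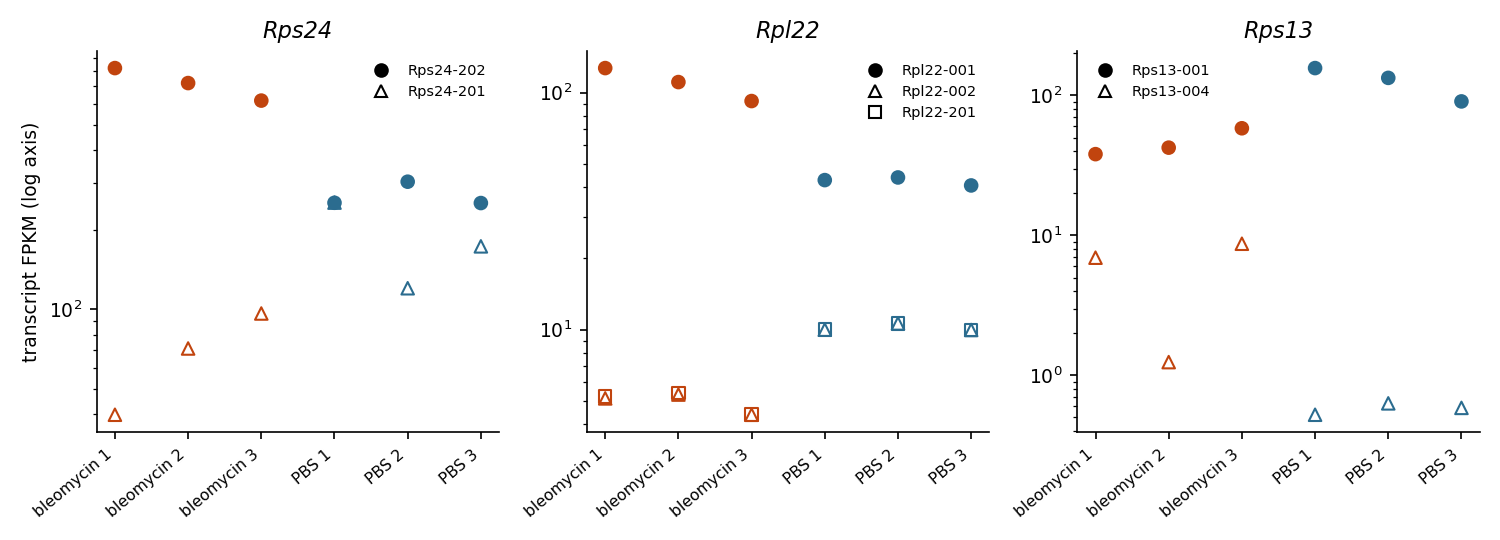
FPKM (log axis) of the forms of Rps24, Rpl22 and Rps13 in each library, bleomycin in orange and PBS in blue, with a symbol per form. Rps24-202 and Rpl22-001 are higher in all bleomycin libraries, the long Rpl22 forms and Rps13-001 are lower, and Rpl22-002 and Rpl22-201 lie on top of each other.

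Further genes of translation were read from lists. Of ribosomal proteins whose names the rule does not take, Rack1, the scaffold protein of the small subunit, averaged 299 ± 45.8 FPKM after bleomycin and 190 ± 43.5 FPKM after PBS (0.66, limma adjusted p = 0.0858). Rpl36al, 87.7% identical to Rpl36a, did not pass (0.83 ± 0.56, limma adjusted p = 0.331).

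Of 18 tested mRNAs outside the members that are known to carry a terminal oligopyrimidine tract, 5 rose (27.8%) and none fell by the limma test. This stands against 15.2% of all tested genes higher and 7.34% lower, and the median was 0.43. Without adjustment 7 of the 18 were higher and 0 lower, against 23.0% of all tested genes higher and 13.8% lower. With equal medians 3 rose, against 11.7% of all tested genes. The list shares genes with others, such as Rack1 with the ribosomal proteins above and Npm1 with the biogenesis genes below. Pabpc1, the cytoplasmic poly(A)-binding protein, averaged 247 ± 24.3 FPKM after bleomycin and 107 ± 9.09 FPKM after PBS (1.19, limma adjusted p = 0.00318). Npm1, a nucleolar chaperone of ribosome assembly, averaged 200 ± 18.1 FPKM after bleomycin and 114 ± 10.7 FPKM after PBS (0.81, limma adjusted p = 0.0151). Of 40 translation factors, which share Pabpc1 and others with that list, 4 rose (10%, against 15.2% of all tested genes) and none fell, with a median of 0.25. Without adjustment 7 of the 40 were higher and 1 lower, against the same 23.0% and 13.8% of all tested genes. With equal medians 2 rose and 1 fell, against 11.7% of all tested genes higher and 11.6% lower. Those that rose included Eif5, the initiation factor that activates GTP hydrolysis (1.16), and Eef1b2, an exchange factor for elongation (0.69).

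Of 71 ribosome biogenesis genes, 10 rose (14.1%, near the 15.2% of all tested genes) and none fell by limma, with a median of 0.38. Without adjustment 25 of the 71 were higher and 0 lower, against 23.0% of all tested genes higher and 13.8% lower. With equal medians 7 rose, against 11.7% of all tested genes. Tcof1, which works with RNA polymerase I, averaged 14.8 ± 0.77 FPKM after bleomycin and 5.96 ± 0.818 FPKM after PBS (1.18, limma adjusted p = 0.0031). Taf1d, a part of the polymerase I selectivity factor, differed by 1.40, and Ncl, the nucleolar protein nucleolin, by 0.83, both past the threshold. Of 23 mTORC1, LARP1 and Myc genes, 2 rose (8.70%, against 15.2% of all tested genes) and none fell (against 7.34%), with a median of 0.20. The share that rose was thus below that of all tested genes. Without adjustment 3 were higher and 1 lower, against 23.0% of all tested genes higher and 13.8% lower. With equal medians 2 rose and 1 fell, against 11.7% of all tested genes higher and 11.6% lower. Myc, a transcription factor that acts on ribosome genes, had 27.0, 22.7 and 21.1 FPKM in the bleomycin libraries, against 4.36, 8.30 and 3.53 FPKM in the PBS libraries, and rose by 2.01 ± 0.29 (limma adjusted p = 0.00424). Mxd1, whose protein competes with Myc for its partner Max, also rose (0.78, limma adjusted p = 0.018).

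Of 16 ribosomal stress and quality control genes, 0 rose and 0 fell by limma after adjustment, against 15.2% of all tested genes higher and 7.34% lower. Without adjustment 2 were higher and 2 lower, against 23.0% of all tested genes higher and 13.8% lower, and the median was 0.04. With equal medians 2 fell, against 11.6% of all tested genes lower. Of the 75 tested mitochondrial ribosomal proteins, which serve the separate ribosome of mitochondria, 0 rose and 0 fell, against the same shares of all tested genes, 15.2% and 7.34%. Without adjustment 8 of these proteins were higher and 1 lower, against 23.0% of all tested genes higher and 13.8% lower. Their median log2 fold change of 0.09 equalled that of all tested genes, while those of the large and small cytosolic subunits were 0.46 and 0.57; the difference between these sets was not tested.

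**Figure D5:**
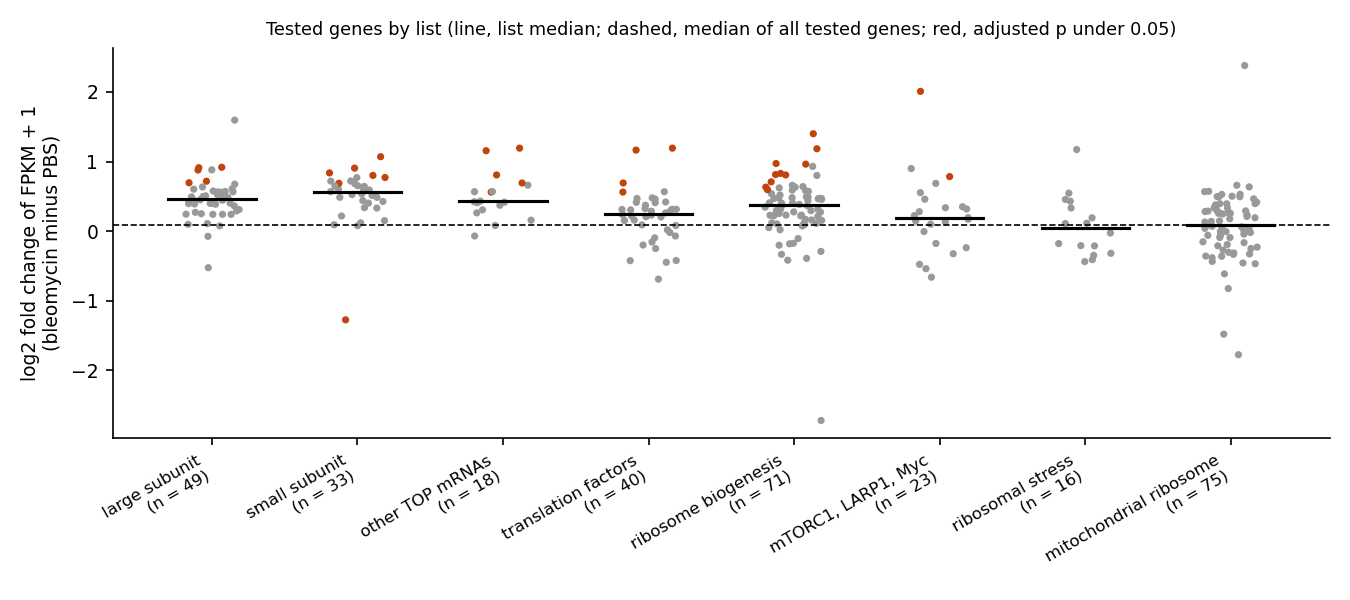
Log2 fold change of FPKM + 1 (bleomycin minus PBS) of each tested gene by list, red for limma adjusted p under 0.05 in either direction, with a solid line at the list median and a dashed line at the median of all tested genes (0.09). The cytosolic subunits, the other mRNAs with the tract and the biogenesis genes have medians of 0.38 to 0.57, and the ribosomal stress and mitochondrial lists lie at 0.04 and 0.09.

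Levels of cell type markers also differed between the groups. The counts below stand against 15.2% of all tested genes higher and 7.34% lower. All 12 alveolar type 2 markers were detected, as were the markers of the other lists, so detection does not bear on the label. The type 2 marker sum was 3344 to 7652 FPKM in the bleomycin libraries, against 17980 to 26080 FPKM in the PBS libraries, and 11 of the 12 fell. Of 17 leukocyte markers 16 rose, and their sum was 1427 to 2001 FPKM after bleomycin and 45.5 to 71.7 FPKM after PBS. The other marker, Lyz2, which type 2 cells also express, did not pass (limma adjusted p = 0.848) and brings the sums to 2030 to 5509 FPKM after bleomycin and 1098 to 1432 FPKM after PBS. All 8 endothelial markers rose, with sums of 281 to 529 FPKM after bleomycin and 26.9 to 29.0 FPKM after PBS. Of 8 fibroblast and smooth muscle markers 4 fell, with sums of 254 to 770 FPKM after bleomycin and 1467 to 1742 FPKM after PBS. Of 5 club and ciliated markers 1 rose (20%), near the share of all tested genes. Their sums were 2355 to 3788 FPKM after bleomycin and 2363 to 10482 FPKM after PBS. Of 5 erythroid markers 2 rose (40%), with sums of 637 to 1185 FPKM after bleomycin and 19.3 to 431 FPKM after PBS. The highest erythroid PBS sum came from PBS library 2, where Hba-a1 had 109 FPKM, against 4.61 and 5.77 FPKM in PBS libraries 1 and 3. The highest club and ciliated sum came from Scgb1a1, at 9716 FPKM in PBS library 1. Without Scgb1a1 the sums were 586 to 912 FPKM after bleomycin and 352 to 976 FPKM after PBS. No marker of these lists was at 0 in all libraries. In bulk samples fewer cells of a type and less RNA per cell cannot be told apart, and the part of these other cells in the ribosomal protein levels was not tested.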

How the data were processed

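The authors deposited 1 table per library with an FPKM value per transcript, per the file headers; the tools HISAT2, StringTie, FastQC 0.10.1 and the build mm10 come from the submitters' processing notes, with annotation, settings and strand use not given in the sources used here. Sequencing depth is unknown, so no counting interval is given. FPKM were summed by gene ID. Genes at 1 FPKM or more in at least 3 of 6 libraries were tested on log2(FPKM + 1), which understates changes of low genes, with limma 3.58.1 in R 4.3.3 (trended eBayes, group as the only term, Benjamini-Hochberg adjustment over all tested genes, threshold 0.05); the code was tested on simulated data. The design had been written for TPM or FPKM.

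Groups came from the agent label. The series design assigns 3 mice to each group; single values of 3 against 3 cannot go below p = 0.1 in an exact permutation test, so none was used. Members and lists were chosen with earlier results of these data known. Named members were those past the threshold, the 5 most abundant per subunit, the 3 largest rises and falls, the paralogs with their partners, and 11 of textbook interest; of other lists, up to 3 genes with the smallest adjusted p. Alternatives changed the pseudocount, filter, scaling, transcript choice, moderation, weights and libraries. RefSeq start windows and GENCODE M21 exon lengths were used only as annotation. One gene of the lists is not reported here.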

Additional observations from a re-analysis of the deposited data

How the results depend on the processing

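The number of members past the limma threshold, 12 as reported, depended on single libraries and on scaling. It ranged from 2 to 14 with 1 library left out, and was 5 with equal medians, 19 with quantile normalization and 32 with each library scaled to its listed sum. The share of members that rose was 4.88% with equal medians, against 11.7% of all tested genes. With quantile normalization it was 22.0%, against 11.6%, and with the listed sum 37.8%, against 15.4%. Whether the share of members exceeded that of all tested genes thus depended on scaling. With array weights in the fit the number of members was 29, and the share of all tested genes in that fit is not given here. Scaling to equal member medians, added after seeing the data, gave 3, and 1 with the replicate block. By construction it gave every library the same median over all members. The subunit medians of the log2 fold change were then -0.041 (large) and 0.070 (small), with or without the block. Over all tested genes, 2776 calls became 1782 to 2630 with 1 library left out. The large to small ratio was 0.760 after bleomycin and 0.772 after PBS as a geometric mean, and 1.17 after PBS with the top transcript. Over the 38 named members and all alternatives, 615 values kept their side of the threshold, 26 passed it, 81 no longer did and 0 reversed. Replicate numbers were not taken to pair the samples: deviations from the group means of same-numbered libraries correlated at -0.0043, 0.0172 and 0.0391 over 12326 genes, and 3 of 6 libraries correlated best with their own number, although among the members library 1 was most often the highest in both groups. With the replicate number as a block 1922 of the 12326 genes passed, and 14 of the 82 members (17.1%), all higher. The limma calls of Rps13 (adjusted p = 0.0616), Rps16 (0.0929) and Rps27a (0.0597) were lost. In that fit 5 biogenesis genes and 2 translation factors rose. Unknown depth, 3 mice per group and unstated handling of shared reads limit all values.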
